A study of Mus musculus with 10 samples.

Results

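The data described here are 8 genes of lymphocyte homing and adhesion in mouse regulatory T cells (Treg cells), namely S1pr1, S1pr4, Cd69, Selplg, Cd44, Icam1, Icam2 and Pecam1. They were taken by gene symbol from a table of 13252 genes. All 8 were found, and all 8 were among the 10718 genes abundant enough to be tested. The study sequenced RNA of CD4+RFP+GFP+ cells under the label Helios+ and of CD4+RFP+GFP- cells under the label Helios-, 5 libraries a group. GFP thus stands for Helios, a transcription factor encoded by Ikzf2, whereas the labels leave unsaid what RFP marks and give no strain, age, sex or tissue. The series' design text speaks of wild type and knockout, whereas the labels of the single samples describe sorted populations of CD4+RFP+ cells, so the comparison below is between sorted populations. Nothing in the labels says that the 5 libraries of a group came from separate mice, so p-values measure the spread between libraries, which may be technical.

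Lymphocytes recirculate between blood, lymph nodes and tissue. They leave lymphoid organs along a gradient of the lipid sphingosine phosphate, which they sense with the receptor encoded by S1pr1. CD69, which appears on activated cells, binds this receptor and takes it off the cell surface, and so holds cells back. Entry into tissue starts with rolling on selectins, for which PSGL-1 (Selplg) is the main ligand on leukocytes, and CD44 binds the matrix polymer hyaluronan. Firm adhesion follows when integrins such as LFA-1 bind ICAM-1 and ICAM-2, and PECAM-1 (CD31) takes part in passage through the vessel wall and carries inhibitory signals. In T cells, high CD44 marks antigen experience, while high S1pr1 and Ccr7 are typical of resting, recirculating cells.

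Libraries held between 4872348 and 6948692 recovered reads. Ikzf2, which checks the labels and is no finding, had 9667 to 10906 normalized counts (reads divided by a size factor per library) in Helios+ and 418.2 to 572.2 in Helios- libraries, with no overlap. All 10 Treg and T cell markers of the list used here were present, and their sum was 24248 to 28253 in Helios+ and 19161 to 24205 normalized counts in Helios- libraries, with no overlap. Of these, 6 were called higher and 0 lower by limma, with the largest log2 changes in Ikzf4 (1.64), Tnfrsf18 (1.13) and Il2rb (1.01). Among all genes tested, 14.1% were called higher and 10.7% lower. Cd5 passed narrowly (limma adjusted p = 0.0498), and Cd4, Cd3e and Cd3g were not called. Foxp3 was not called, with 3570.1 ± 201 normalized counts in Helios+ and 3526 ± 226 in Helios- libraries (SD, n = 5 each). The B cell markers were also present (8 of 8), and their summed level of 1305 to 1760.4 in Helios+ libraries overlapped the 1463 to 1977 in Helios- libraries but was lower in Helios+ in 5 of 5 replicate pairs. Ebf1 alone was called lower (limma adjusted p = 0.0293) and 0 of the 8 higher, beside 10.7% and 14.1% of all genes. Macrophage and monocyte markers were all present (12 of 12) and summed to more in Helios+ than in Helios- libraries, with no overlap (796 to 1117 against 416 to 608 normalized counts). Of these, 3 of the 8 tested were called higher, namely Csf1r, Cybb and Vcam1, beside 14.1% of all genes. Cybb alone averaged 488 in Helios+ and 231 in Helios- cells. Lyz2, Emr1, C1qb, C1qc and Cd68 were not called, and Cd68 was lower in mean in Helios+, at 25.3 against 31.2. Fcgr1 and Cd14 averaged under 2 normalized counts in both groups. The summed markers of CD8 T and NK cells, dendritic cells and neutrophils overlapped between the groups. The part of these markers in the results was not tested. In bulk samples such as these, fewer cells of a type and less RNA per cell cannot be told apart.

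The 8 genes divided by direction. Cd44 and Icam1 were higher in Helios+ cells, and S1pr1, S1pr4, Selplg and Pecam1 were lower. Cd69 and Icam2 were lower in mean without passing the test. Calls had an adjusted p under 0.05 in limma's moderated test on log2(normalized count + 1). So 6 of 8 were called, where 24.8% of all genes tested were called. The same 2 higher and 4 lower genes were called on recovered reads by edgeR, which called 24.6% of all genes, and by DESeq2, which called 26.6%. In the single directions 2 were higher against 14.1% of all genes and 4 lower against 10.7%. The 5 values of each group did not overlap for 5 of the 8 genes, against 19.5% of all genes tested. All 8 kept 1 direction in 5 of 5 replicate pairs, as did 39.8% of all genes. The median log2 change of the 8 genes was -0.29 and that of all genes tested -0.02, while the median absolute changes were 0.54 and 0.18. The 8 genes were chosen with earlier results of these data known, so these shares are no test of the group. They also lay between percentiles 59.0 (Icam1) and 95.5 (S1pr1) of abundance among the genes tested, and the shares were not matched for abundance.

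**Figure D1:**
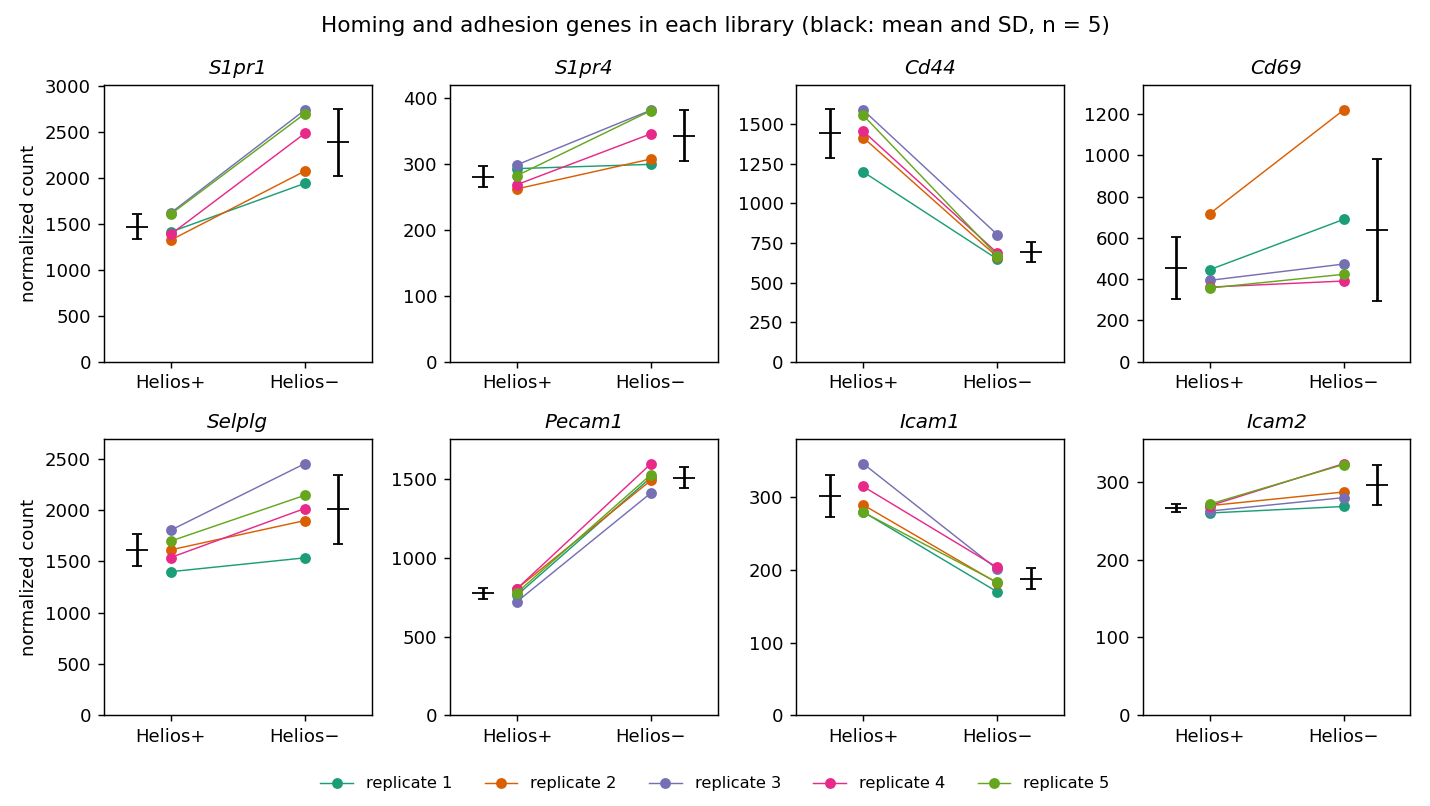
Normalized counts (y axes, linear from 0) of the 8 genes by library, 5 Helios+ and 5 Helios-. Lines join libraries of the same replicate number, and black bars give the mean and SD of a group; Cd44 and Icam1 sit higher in every Helios+ library, Pecam1, S1pr1 and S1pr4 sit lower, and Cd69 is highest in replicate 2 of both groups.

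S1pr1, the receptor that guides egress into lymph and blood (GRCm38, chromosome 3, 115710433 to 115715072, minus strand), was lower in Helios+ cells. Helios+ replicates 1 to 5 had 1411, 1323, 1619, 1385 and 1605 normalized counts, and Helios- replicates 1 to 5 had 1939.8, 2074, 2737, 2483 and 2697. The lowest Helios- library stood above the highest Helios+ library. The means were 1469 ± 135 in Helios+ and 2386 ± 363 in Helios- cells (SD, n = 5 each), so Helios- cells had 1.62 times the Helios+ level. The log2 change was -0.69 ± 0.10 (SE), with a limma adjusted p of 8.78e-05. Within replicate numbers the log2 difference lay between -0.84 and -0.46.

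S1pr4, a related receptor found mostly on leukocytes (chromosome 10, 81497747 to 81500132, minus strand), was lower to a smaller extent. The 5 Helios+ libraries had 293, 263, 299, 269 and 283 normalized counts, and the 5 Helios- libraries 299.9, 308, 382, 346 and 381. The groups did not overlap, but replicate 1 of the Helios- cells lay next to the Helios+ range. The means were 281 ± 15.5 in Helios+ and 344 ± 39.1 in Helios- cells, and the log2 change was -0.28 ± 0.09 (limma adjusted p = 0.026). This call was lost in limma when Helios+ replicate 2 (adjusted p = 0.0664) or 4 (0.0639), or Helios- replicate 3 (0.0528), 4 (0.0557) or 5 (0.0736), was left out singly. With the replicate number as a block, the limma adjusted p was 0.00388, in a fit that called 37.3% of all genes.

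The balance of both receptors also differed. S1pr1 reads per S1pr4 read, a ratio within each library that needs no scaling between libraries, was 4.81, 5.04, 5.41, 5.15 and 5.68 in Helios+ and 6.47, 6.73, 7.16, 7.17 and 7.07 in Helios- replicates 1 to 5. Every Helios+ value was lower than every Helios- value. The means were 5.22 ± 0.336 in Helios+ and 6.92 ± 0.309 in Helios- libraries (SD, n = 5 each). An exact permutation test, two-sided, gave p = 0.00794, which is the lowest value that 252 assignments allow, and p = 0.0119 after adjustment over the 3 ratios tested. Of the other receptor genes, S1pr2 was called higher, at 53.4 ± 11.2 in Helios+ against 30.7 ± 10.9 in Helios- cells, with a limma adjusted p of 0.0233. That call was lost without Helios+ replicate 4 (limma adjusted p = 0.069) or 5 (0.0578) and with quantile normalization (0.0574). S1pr3, at 9.39 in Helios+ and 12.7 in Helios- cells, was not called, and S1pr5, at 5.33 in Helios+ and 8.25 in Helios- cells, was too low to be tested.

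Cd69, the early activation antigen that binds the S1pr1 protein (chromosome 6, 129267325 to 129275436, minus strand), varied more between replicate numbers than between groups. Helios+ replicates 1 to 5 had 445, 716, 394, 361 and 357 normalized counts, and Helios- replicates had 689, 1218, 473, 391 and 423. Replicate 2 was highest and replicate 1 next highest in both groups, and the groups overlapped. The means were 455 ± 150.2 in Helios+ and 639 ± 344 in Helios- cells. The spread was 33.0% of the mean in Helios+ and 53.9% in Helios- cells, where the other 7 genes had between 1.86% and 16.7%. The log2 change of -0.40 ± 0.32 did not pass the test (limma adjusted p = 0.422), and its 95% confidence interval ran from -1.12 to 0.32. With the replicate number as a block, the same change had an SE of 0.08 and a limma adjusted p of 7.01e-04, in a fit that called 37.3% of all genes. The difference within replicate numbers was -0.63 and -0.77 in replicates 1 and 2 and between -0.26 and -0.11 in replicates 3 to 5. Without replicates 1 and 2 of both groups, a choice made after seeing the data, the change was -0.21 (limma adjusted p = 0.167). Without Helios- replicate 2 alone it was -0.14 (limma adjusted p = 0.712). Cd69 reads per S1pr1 read were 0.317 ± 0.130 in Helios+ and 0.286 ± 0.188 in Helios- libraries, with an exact two-sided permutation p of 0.532.

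**Figure D2:**
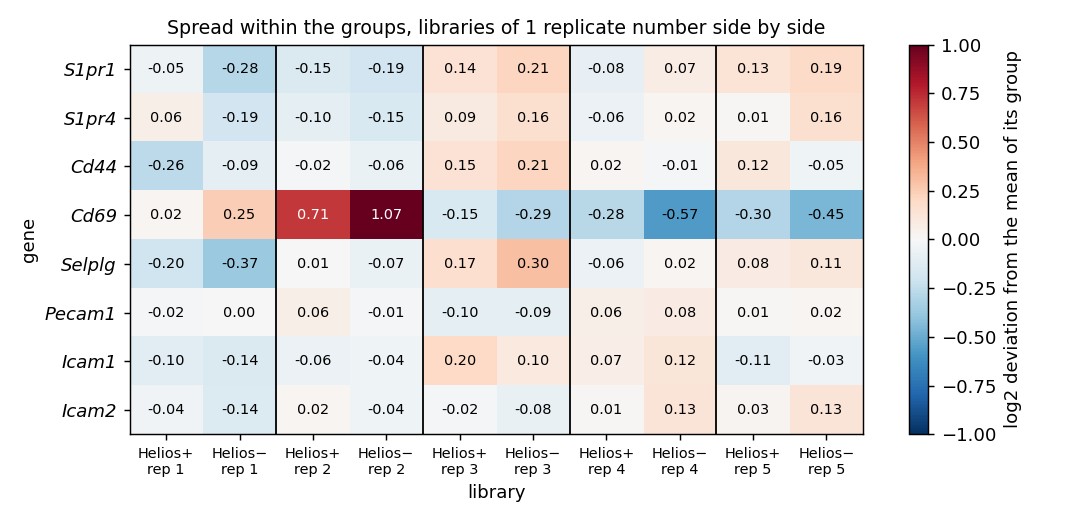
Deviation of each library from the mean of its group (log2 scale, colour and printed value), with genes in rows and libraries in columns ordered by replicate number. Cd69 lay 0.71 above its mean in Helios+ and 1.07 above it in Helios- replicate 2, while Pecam1 stayed within 0.10 in every library.

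Selplg, the gene of the selectin ligand PSGL-1 (chromosome 5, 113818536 to 113832644, minus strand), was lower in Helios+ cells by a small margin. Helios+ libraries had 1399.95, 1613, 1804, 1538 and 1698 normalized counts, and Helios- libraries 1535, 1898, 2452, 2015 and 2144. The groups overlapped, since Helios- replicate 1 lay within the Helios+ range. The means were 1610.5 ± 154 in Helios+ and 2009 ± 336 in Helios- cells, and the log2 change was -0.31 ± 0.11 with a limma adjusted p of 0.049. In the replicate block the limma adjusted p was 3.07e-05. The call was lost when any of 8 libraries was left out singly, with limma adjusted p between 0.0674 and 0.116, and was kept without Helios+ replicate 3 or Helios- replicate 1. It was also lost with TMM scaling (adjusted p = 0.0551), quantile normalization (0.128) and a minimum mean of 50 (0.0542).

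Libraries at the ends of these ranges also differed in RNA content. Helios- replicate 1, the lowest Helios- library for S1pr1, S1pr4, Selplg, Cd44, Icam1 and Icam2, had the largest share of the nuclear RNA Malat1, at 3.64% against 1.43% to 2.12% in the other Helios- libraries. Helios- replicate 3, the highest Helios- library for S1pr1, S1pr4, Selplg and Cd44, had the largest share of the ribosomal RNA precursor Rn45s, at 18.6% against 8.54% to 12.1%. In Helios+ libraries these shares were 1.30% to 2.27% and 10.04% to 13.8%. Helios+ replicate 1 had the largest Malat1 share of its group. It was the lowest Helios+ library for Cd44, Selplg and Icam2, but not for S1pr1, S1pr4 and Icam1. Helios+ replicate 3 had the largest Rn45s share of its group and was the highest Helios+ library for S1pr1, S1pr4, Selplg, Cd44 and Icam1. The Malat1 share was lower in Helios+ than in Helios- libraries in 5 of 5 replicate pairs. The part of these shares in the results was not tested.

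Cd44, the hyaluronan receptor (chromosome 2, 102811141 to 102901665, minus strand), rose in Helios+ cells and was the only one of the 8 genes with a fold of means above 2. Helios+ libraries had 1198, 1414, 1588, 1454 and 1555 normalized counts, and Helios- libraries 648, 662, 803, 687 and 669.6. Every Helios+ library was higher than every Helios- library, with a wide gap between the groups. The means were 1442 ± 154 in Helios+ and 694 ± 62.6 in Helios- cells, a 2.08-fold difference. The log2 change was 1.05 ± 0.08 (limma adjusted p = 1.87e-07). A called rise of at least 2-fold in means was found for 5.35% of all genes tested. The counts are summed over isoforms, so the standard and variant forms of CD44 were not told apart.

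Icam1 encodes an LFA-1 ligand that is inducible through NF-kB (chromosome 9, 21015985 to 21028817, plus strand), and Icam2 a second LFA-1 ligand that is constitutive on resting lymphocytes and endothelium (chromosome 11, 106377656 to 106388075, minus strand). Icam1 rose in Helios+ cells. Helios+ libraries had 279.8, 289, 346, 315 and 279 normalized counts, and Helios- libraries 169.9, 182, 201, 203.5 and 183. The groups did not overlap. The means were 302 ± 28.6 in Helios+ and 188 ± 14.1 in Helios- cells, a 1.61-fold difference. The log2 change was 0.68 ± 0.09 (limma adjusted p = 2.75e-05). Of the annotated exon bases of Icam1, 11.7% overlap the antisense gene Gm47079, and the strand setting of the counting is not given in the sources used here. No exon base of the other 7 genes overlaps another gene. Macrophages also express Cd44 and Icam1, and the macrophage and monocyte marker sum given above moved in the same direction. Within that sum, Cd68 was lower in mean in Helios+ cells. The part of the sum in both results was not tested.

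Icam2 did not pass the test. Its 5 Helios+ libraries had 259.9, 269, 262, 269 and 271 normalized counts, the tightest group of all, with a spread of 1.86% of the mean. Its Helios- libraries had 268, 287, 279.6, 323 and 322, and the lowest of them lay within the Helios+ range. The log2 change was -0.15 ± 0.08 (limma adjusted p = 0.182), and its 95% confidence interval ran from -0.31 to 0.01. In the replicate block the limma adjusted p was 0.112.

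The proportion of the 2 ICAM transcripts therefore differed. Icam1 reads per Icam2 read were 1.08, 1.07, 1.32, 1.17 and 1.03 in Helios+ and 0.633, 0.635, 0.719, 0.630 and 0.568 in Helios- replicates 1 to 5. All Helios+ libraries lay above 1 and all Helios- libraries below it. The means were 1.13 ± 0.115 in Helios+ and 0.637 ± 0.0537 in Helios- libraries. The exact two-sided permutation p was 0.00794, or 0.0119 adjusted over the 3 ratios. Since a read count also depends on transcript length, the value 1 does not mark equal numbers of transcripts.

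The promoter windows of Icam1, Cd44 and S1pr4 are shown because these 3 called genes had an entry in the RefSeq promoter table (GRCm38.p6, 3 of 8 genes matched). Each window runs 5′ to 3′ on the gene's strand from 250 bases before to 50 bases after the start. Both strands were searched for CACCC, a site of Kruppel-like factors, GGGAA, the core bound by Ikaros family factors, GTAAACA (FOXO), TGANTCA (AP-1) and GGANNTTCC (NF-kB), and all matches are in capitals.
Icam1, chr9:21015690-21015989, plus strand: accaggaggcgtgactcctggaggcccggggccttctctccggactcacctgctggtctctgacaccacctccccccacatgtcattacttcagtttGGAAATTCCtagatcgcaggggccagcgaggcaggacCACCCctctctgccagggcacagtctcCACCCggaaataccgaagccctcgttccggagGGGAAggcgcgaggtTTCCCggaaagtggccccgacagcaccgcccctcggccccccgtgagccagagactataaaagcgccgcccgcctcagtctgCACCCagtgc
Cd44, chr2:102901616-102901915, minus strand: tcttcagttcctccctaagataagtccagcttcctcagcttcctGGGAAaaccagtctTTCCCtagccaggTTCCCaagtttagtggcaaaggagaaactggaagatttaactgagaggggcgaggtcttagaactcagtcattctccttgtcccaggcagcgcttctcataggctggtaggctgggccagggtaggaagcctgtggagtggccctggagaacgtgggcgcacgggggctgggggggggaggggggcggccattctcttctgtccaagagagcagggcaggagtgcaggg
S1pr4, chr10:81500088-81500387, minus strand: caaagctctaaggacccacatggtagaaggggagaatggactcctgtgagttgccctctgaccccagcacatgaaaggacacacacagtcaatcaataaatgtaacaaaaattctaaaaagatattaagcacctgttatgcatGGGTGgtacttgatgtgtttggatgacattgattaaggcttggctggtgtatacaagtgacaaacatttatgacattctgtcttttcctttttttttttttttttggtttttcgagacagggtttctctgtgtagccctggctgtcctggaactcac
The Icam1 window held the NF-kB motif once, as GGAAATTCC at bases 98 to 106 of the window. This stretch matches the pattern in both orientations. The pattern was found in 4.26% of 32851 promoter windows. The Icam1 window also held CACCC 3 times, all on its own strand, and GGGAA once on each strand. The Cd44 window held GGGAA 3 times, once forward and the others in reverse as TTCCC, and none of the other motifs. The S1pr4 window held CACCC once, in reverse as GGGTG. Both CACCC and GGGAA are common, in 57.5% and 62.7% of windows, while GTAAACA and TGANTCA, found in 3.65% and 7.81%, were in none of these 3. A match is a stretch of letters and not evidence of binding.

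Pecam1, which encodes the homophilic adhesion receptor CD31 with inhibitory motifs in its tail (chromosome 11, 106654217 to 106750628, minus strand), had the smallest p of the 8 genes. Helios+ libraries had 763, 805, 722, 804 and 779 normalized counts, and Helios- libraries 1511, 1492, 1412, 1598 and 1529. No Helios+ library came near the Helios- range. The means were 775 ± 34.3 in Helios+ and 1509 ± 67.0 in Helios- cells, so Helios- cells had 1.95 times the Helios+ level. The log2 change was -0.96 ± 0.06 (limma adjusted p = 1.2e-08), and it lay between -0.99 and -0.89 in all 5 replicate pairs. Pecam1 and Icam2 are also genes of endothelium and Pecam1 of platelets. Of 10 endothelial markers, 5 were in the table and none was abundant enough to be tested, with a summed level of 7.77 to 34.6 in Helios+ and 7.41 to 22.9 normalized counts in Helios- libraries. The defining endothelial gene Cdh5 averaged 1.35 in Helios+ and 3.35 in Helios- cells, and Esam 0.88 and 2.16. Kdr, at 4.62 and 1.86, and Vwf, at 4.57 and 2.60, were higher in mean in Helios+ cells. Flt1 averaged 4.33 in Helios+ and 4.68 in Helios- cells. Of the platelet and erythroid markers, Pf4 averaged 1.40 in Helios+ and 1.26 in Helios- cells, and Ppbp 0.95 and 1.92. Itga2b averaged 14.2 and 17.9, and Alas2 8.83 and 11.5, and neither was called. The sum of these markers was lower in Helios+ in 4 of 5 replicate pairs. The B cell marker sum given above was lower in Helios+ in 5 of 5 replicate pairs. The part of these sums in the Pecam1 result was not tested.

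**Figure D3:**
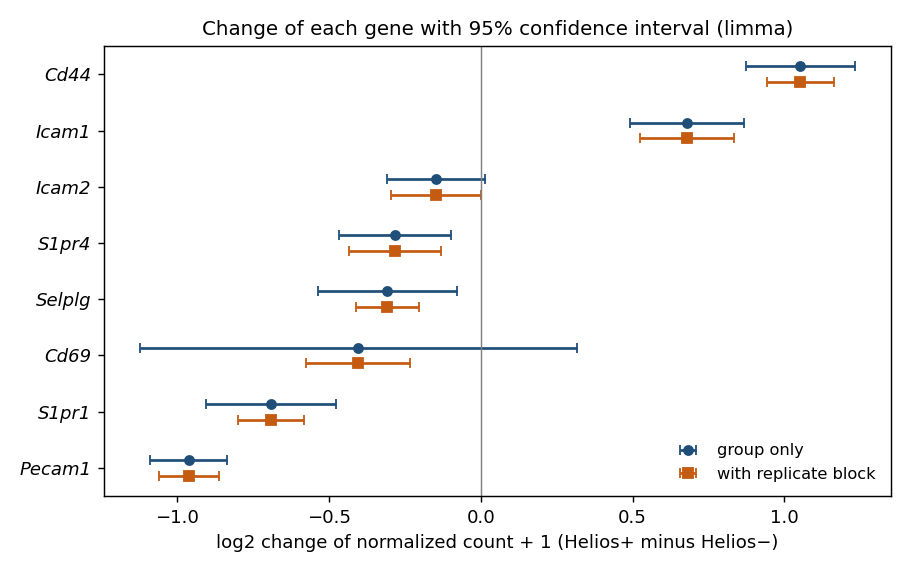
Log2 change of normalized count + 1 (x axis, Helios+ minus Helios-) of the 8 genes with 95% confidence intervals from limma, without (circles) and with (squares) the replicate number as a block. Cd44 and Icam1 lie above 0, and the interval of Cd69 narrows from -1.12 to 0.32 without the block to -0.57 to -0.23 with it.

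**Figure D4:**
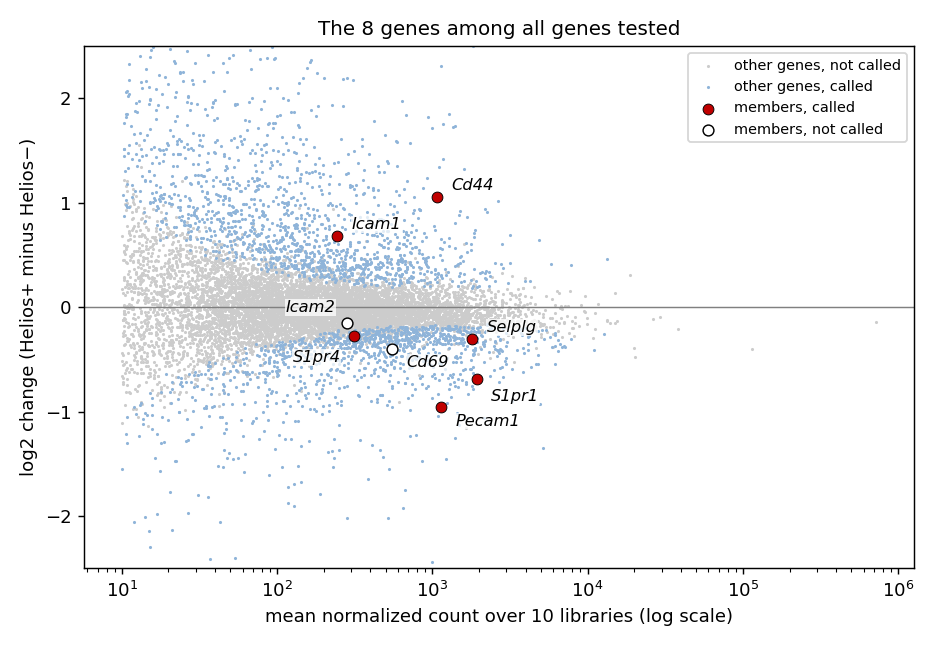
Log2 change (y axis, Helios+ minus Helios-) by mean abundance in the 10 libraries (x axis, normalized count, log scale) for all genes tested, with 108 genes beyond the limits of 2.5 on the y axis not shown. The 8 genes are in the range of moderate to high counts, and 6 of them were called.

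Levels were compared between genes as normalized counts per kilobase of exon, using the GENCODE M21 basic transcripts. In Helios+ cells the order from high to low was Selplg (868 ± 83.0), S1pr1 (482 ± 44.2), Cd69 (269.5 ± 89.1), Cd44 (255 ± 27.2), Icam2 (208 ± 3.86), Pecam1 (187 ± 8.29), Icam1 (119 ± 11.3) and S1pr4 (118 ± 6.51). In these cells the values of Cd69 and Cd44 overlapped, as did those of Icam1 and S1pr4, while other neighbours did not. In Helios- cells it was Selplg (1083 ± 181), S1pr1 (783 ± 119), Cd69 (379 ± 204), Pecam1 (365 ± 16.2), Icam2 (231 ± 19.7), S1pr4 (144 ± 16.4), Cd44 (123 ± 11.1) and Icam1 (74.1 ± 5.57). There Selplg, S1pr1 and Cd69 each overlapped the next gene in the order, as did S1pr4 and Cd44, while Pecam1 did not overlap Icam2. Cd44 was in place 4 of the 8 in Helios+ and in place 7 in Helios- cells, and Pecam1 was in place 6 in Helios+ and in place 4 in Helios- cells. With the exons of all annotated transcripts, S1pr1 was in place 1 and Cd69 in place 7 in both groups, so the places of genes with long minor transcripts depend on the annotation.

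Genes around the 8 were taken from 5 lists, whose counts stand beside 14.1% called higher and 10.7% called lower among all genes tested, with a median log2 change of -0.02. In the list of sphingosine phosphate signalling and egress, 19 of 26 genes were tested, 4 were called higher and 5 lower, and the median log2 change was -0.08. Klf2, a transcription factor known to drive S1pr1, was lower, at 1239 ± 93.8 normalized counts in Helios+ against 2049.97 ± 277 in Helios- cells. Its log2 change was -0.72 ± 0.09 (limma adjusted p = 2.27e-05), beside the -0.69 of S1pr1. A link between these changes was not tested. Arrb2, an arrestin that uncouples receptors from G proteins, was lower, at 443 ± 31.0 in Helios+ against 648 ± 67.8 in Helios- cells. Rgs1, which dampens G protein signals of chemoattractant receptors, was higher, at 1124 ± 99.2 against 709 ± 104. Ppap2a, now named Plpp1, encodes a lipid phosphatase and had 38.4 ± 5.02 in Helios+ against 4.22 ± 3.00 normalized counts in Helios- cells, with 25.8% of its exon bases shared with other genes. It is among the calls above, but it passed the minimum mean of 10 only through Helios+ cells.

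Among selectins and the enzymes that build their ligands, 16 of 23 genes were tested, 3 were called higher and 3 lower, and the median log2 change was -0.02. Enzymes that modify PSGL-1 and other ligands went both ways. Chst2, a sulfotransferase of selectin ligands, was 5.08-fold higher in means, at 277 ± 39.3 in Helios+ against 54.5 ± 15.3 in Helios- cells. Gcnt1, which makes the branched core of functional PSGL-1 glycans, was 3.03-fold higher, at 111 ± 19.8 against 36.6 ± 3.11. St3gal6, a sialyltransferase of selectin ligands with 26.0% of its exon bases shared with other genes, had 25.2 ± 5.30 in Helios+ against 65.8 ± 7.46 normalized counts in Helios- cells. Selp (P-selectin), the receptor that PSGL-1 is named for, was singled out after its values were seen. It had 29.8 ± 3.15 in Helios+ against 4.17 ± 3.67 normalized counts in Helios- cells. It is among the 3 genes called higher above, but it passed the minimum mean of 10 only through Helios+ cells, so its test is not given. Beside it, the sum of platelet and erythroid markers was 9.20 to 40.9 in Helios+ and 22.2 to 53.9 in Helios- libraries.

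In the list of LFA-1 and integrin activation 23 of 25 genes were tested, 2 were called higher and 10 lower, and the median log2 change was -0.12. With quantile normalization the counts were 3 higher and 4 lower, where 12.9% of all genes were called higher and 12.5% lower. Itgal, the alpha chain of LFA-1 and thus a receptor of ICAM-1, was higher, at 3918 ± 169 in Helios+ against 2434 ± 157 normalized counts in Helios- cells (log2 change 0.69 ± 0.07, limma adjusted p = 1.09e-06). Itgb2, the beta chain of LFA-1, did not pass the test, at 3716 ± 208 in Helios+ and 3541 ± 372 in Helios- cells (log2 change 0.07 ± 0.08, limma adjusted p = 0.553). Rapgef1, an exchange factor of the small G protein Rap1, had 2076 ± 118 in Helios+ and 1746 ± 106 in Helios- cells. The adaptor Fyb (ADAP), with 10.2% of exon bases shared, had 6186 ± 119.6 in Helios+ against 8045 ± 422 in Helios- cells, a call that was lost with quantile normalization (limma adjusted p = 0.0773). Cyth1, a cytohesin that binds the LFA-1 beta chain, had 1868 ± 43.7 against 2393 ± 179.

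Of the ligands, membrane anchors and proteases of CD44, 15 of 23 genes were tested, 3 were called higher and 3 lower, and the median log2 change was -0.03. Mmp14, a membrane protease that cleaves CD44, had 80.8 ± 12.8 in Helios+ against 41.0 ± 9.59 normalized counts in Helios- cells. Nf2 (merlin), which links CD44 to growth control, had 587 ± 52.3 against 434 ± 30.2. The kinase Stk10, which phosphorylates ezrin, radixin and moesin, had 5179.6 ± 152 in Helios+ against 6319.8 ± 382 in Helios- cells, and its call was lost with quantile normalization (limma adjusted p = 0.167). Pip5k1c, a lipid kinase of adhesion sites, had 691 ± 51.3 against 857 ± 43.6.

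In the list of other adhesion molecules 24 of 36 genes were tested, 7 were called higher and 3 lower, with a median log2 change of 0.14. The list also holds the phosphatase genes Ptpn6, which was not called, and Ptpn11, which is among the 7 called higher. The replicate block called 10 higher and 3 lower. Alcam, the ligand of CD6, was 3.96-fold higher in means, at 132 ± 17.8 in Helios+ against 33.3 ± 7.07 normalized counts in Helios- cells. Vcam1, also among the macrophage markers, was one of the genes called higher. The tetraspanin Cd82 had 1969 ± 181 in Helios+ and 1053 ± 181 in Helios- cells. Cd47, the signal that restrains phagocytes, had 669 ± 29.9 in Helios+ and 1147 ± 32.8 in Helios- cells, with no overlap (log2 change -0.78 ± 0.06, limma adjusted p = 8.88e-08). Pvr (CD155), a ligand of CD226 and TIGIT, had 132 ± 15.1 in Helios+ and 242 ± 28.7 in Helios- cells.

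**Figure D5:**
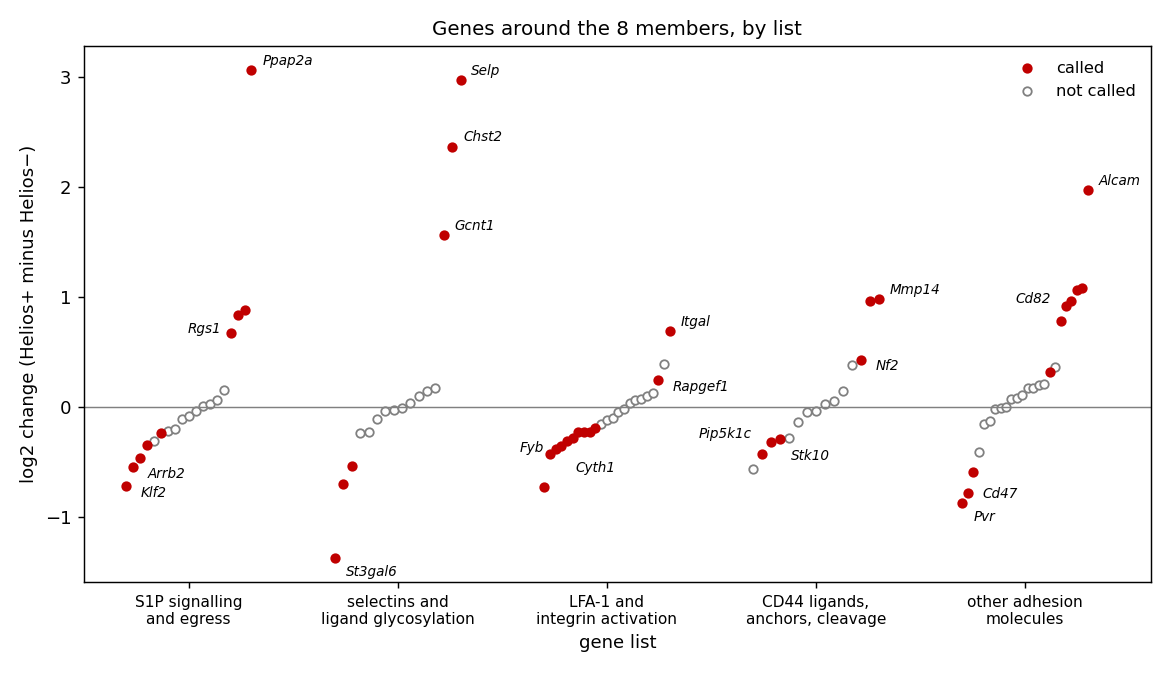
Log2 change (y axis, Helios+ minus Helios-) of every tested gene in the 5 lists (x axis), sorted by change within a list. Filled points were called by limma and open points were not. Labels mark Selp and genes named for a p among the smallest of their list and direction. Calls lie on both sides of 0 in each list, with 2 higher and 10 lower for LFA-1 and integrin activation.

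For the 6 called genes, the nearest patterns over the 10 libraries were sought among 8025 genes with a mean of at least 50, by the root mean square difference of log2 profiles centred on their own means. Nearest to S1pr1 were Ccr7, the chemokine receptor of lymph node entry (0.09), Arsb (0.09, with 39.9% of exon bases shared) and Zfp217 (0.10). Ccr7 averaged 500.4 in Helios+ and 835 normalized counts in Helios- cells. Nearest to Icam1 were the transcription factor Irf4 (0.09), Itgal (0.09) and Abi2 (0.09). Irf4 averaged 649 in Helios+ and 389 in Helios- cells. Nearest to Pecam1 were the scaffold gene Iqgap2 (0.07), Themis (0.08), which acts in T cell receptor signalling, and Rcbtb2 (0.08). Nearest to Cd44 were Prr13 (0.08), Mxd4 (0.09) and Vwa5a (0.10). Nearest to Selplg were Msn (0.05), which encodes moesin, Arhgdib (0.05) and Itm2b (0.06). Msn averaged 7391 in Helios+ and 9041 in Helios- cells and was not called. Nearest to S1pr4 were Ttc7 (0.06), Cd247 (0.07, with 60.3% of exon bases shared) and Hvcn1 (0.07, with 44.2% shared).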

How the data were processed

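RNA-seq of 5 Helios+ and 5 Helios- Treg libraries was analysed. Libraries came from total RNA with a stranded low-input kit, per the labels' protocols. The submitters' processing notes name mm10, HISAT2 2.0.4, HTSeq and DESeq2, without roles. No source used here gives the annotation, strand setting or gene filter. The authors deposited 1 table of normalized counts, a signal equal to the read count over 1 size factor per library: 100% of values were whole multiples of the smallest value above 0 within 0.001.

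Genes with a mean of at least 10 were tested with limma 3.58.1 (R 4.3.3, trend and robust) on log2(normalized count + 1), which understates changes of low genes, with Benjamini-Hochberg adjustment over all 10718. Alternatives included edgeR 4.0.16 and DESeq2 1.42.0 on recovered reads. Libraries of the same replicate number deviated together (correlations across genes 0.48, 0.19, 0.39, 0.16 and 0.15, all above the minimum of 0.1), so the numbers were taken to pair libraries, from the data. Ratios used exact permutation tests. The fits were tested on simulated data. Coordinates and exons are from GENCODE M21 (GRCm38). Named genes were the 8 members, the 2 called genes of smallest p per direction and list, and the 3 nearest profiles of each called member. One gene that the rule names is not reported here. The members and lists were chosen with earlier results of these data known. Selp, S1pr2, S1pr3, S1pr5, Itgb2, Tsc22d3, Bcl2l11, Zfp1, Rab27a and Dusp1 were added after their values were seen.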

Additional observations from a re-analysis of the deposited data

Results flagged for a closer look

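Of 22 sets of 5 values examined (8 genes and 3 ratios in each group), 2 had a library set apart from the other 4 by a gap above 0.71 of the whole range, where chance flags about 1 in 20. Cd69 in Helios+ replicate 2 was the highest of its group, at 715.9 normalized counts, with a gap of 0.754 of the range. The Helios- library of the same number was also the highest of its group, at 1218. Cd44 in Helios- replicate 3 was the highest of its group, at 802.8 normalized counts, with a gap of 0.75 of the range, and it remained below the lowest Helios+ library at 1198.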

How the results depend on the processing

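The direction of the 8 changes held under all alternatives run, including pseudocounts of 0.5 and 5, no filter, edgeR and DESeq2. Cd44, Icam1, S1pr1 and Pecam1 were called in each of them. Over the fits that leave out 1 library, the log2 changes ranged from 1.02 to 1.12 for Cd44, 0.63 to 0.71 for Icam1, -0.76 to -0.64 for S1pr1, -0.98 to -0.94 for Pecam1, -0.33 to -0.24 for S1pr4, -0.40 to -0.23 for Selplg, -0.58 to -0.14 for Cd69 and -0.18 to -0.12 for Icam2. The number of members called lower was 4. It ranged from 2 to 4 over the fits that leave out 1 library and was 5 with the replicate block. Leaving out Helios+ replicate 2 or 4 or Helios- replicate 3, 4 or 5 gave 2. Selplg lost its call at -0.31 with a mean of at least 50, at -0.30 with TMM scaling and at -0.22 with quantile normalization. The replicate block called Cd69 at -0.40 and changed no other call of the 8. The list of sphingosine phosphate signalling had 2 genes called higher at a mean of at least 50, against 4, since fewer genes were tested. The integrin list had 4 called lower with quantile normalization, against 10, and the cause was not tested. Within 5 replicate pairs the exact test of the ratios cannot go below 0.0625, which was its value for S1pr1 to S1pr4 (log2 difference -0.41), Icam1 to Icam2 (0.83) and the Ikzf2 check (4.42). The 8 genes had 145 to 2904 recovered reads per library. Without replicates 1 and 2 of both groups, added after seeing the data, 2 were called higher and 4 lower.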

Other observations

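Genes with a profile near that of Cd69, which was not among the called genes, were looked up after its values were seen. The nearest was Bcl2l11, which encodes the death-promoting BH3-only protein BIM, at a root mean square difference of 0.17 on the log2 scale. Zfp1 (0.19) and Rab27a (0.21) came next. Tsc22d3 and Dusp1 were not among the nearest 3 and were picked after their values were seen. Bcl2l11 had 768 normalized counts in Helios+ replicate 2 against 454 to 623 in the other Helios+ libraries, and 1223 in Helios- replicate 2 against 509.6 to 734 in the other Helios- libraries. Tsc22d3, a gene induced by glucocorticoids, had 1444 in Helios+ replicate 2 against 228 to 769 in the other Helios+ libraries, and 2067 in Helios- replicate 2 against 441 to 980.5 in the other Helios- libraries. Dusp1, a phosphatase gene also induced by glucocorticoids, had 396 in Helios+ replicate 2 against 149 to 224, and 157 in Helios- replicate 2 against 50.4 to 58.6. Dusp1 was higher in the Helios+ library of each replicate number, whereas Cd69 was lower in each. For Bcl2l11, Tsc22d3 and Dusp1 replicate 2 was the highest library of both groups, as for Cd69. Since these genes were chosen by nearness to Cd69 or with their values seen, this likeness follows from the choice. The share of all genes with this pattern was not counted. The labels give no batch, date or treatment that sets replicate 2 apart, and no relation between these genes was tested.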
